A study of Mus musculus with 139 samples.

Results

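Mir122 is the gene of microRNA-122, a small RNA made by hepatocytes, the parenchymal cells of the liver. It was taken as the row of that name, 1 of 6114 rows of a table of small non-coding RNA counts, of which 2207 rows are microRNAs. Small RNA was sequenced from 11 tissues of 14 untreated C57BL/6J mice, an inbred laboratory strain, to give an atlas of normal tissues. The mice were wild type and adult, at 3 months of age, as far as the labels give these. All groups share that strain and the absence of treatment, and differ in tissue and in animal: the table's column names mark animals 1 to 10 as female and animals 11 to 14 as male. The table holds 134 libraries, namely 14 each of brain, kidney, muscle and spleen, 13 each of liver, lung and heart, 12 each of pancreas, intestine and bone marrow, and 3 of testis. Whole tissue was used, so more cells of a type and more RNA per cell cannot be told apart.

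A microRNA is cut from a hairpin precursor, loaded into an Argonaute protein, and guides that protein to messenger RNAs that pair with bases 2 to 8 of the microRNA, called its seed. The messengers found this way are repressed. In hepatocytes Mir122 is known for its role in cholesterol and lipid metabolism and for binding the RNA of hepatitis C virus, and its plasma level is used as a sign of liver injury.

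Mature sequences are shown for miRNAs that the levels of Mir122 are set against below: 4 that exceeded it in liver (Mir192, Mir30a, Mir10a and Mir148a), and Mir101b and Mir3073a, which are among those whose tissue pattern was most like it. They are RefSeq's, on GRCm38.p6, written from the 5′ end, with the seed in capitals. The count table adds up both arms of a hairpin; where 1 arm is shown, it is the arm usually reported as the more abundant, which was not measured here. Sequences of Mir122, Mir21a, Mir1948, Mir6972 and Mir6978 are not shown.
mmu-miR-192-5p: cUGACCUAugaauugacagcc
mmu-miR-30a-5p: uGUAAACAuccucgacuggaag
mmu-miR-10a-5p: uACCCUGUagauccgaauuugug
mmu-miR-148a-3p: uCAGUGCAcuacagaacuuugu
mmu-miR-101b-3p: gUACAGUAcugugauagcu
mmu-miR-3073a-5p: gUGGUCACaguuggcgccagcc
mmu-miR-3073a-3p: uUGAUGUCcacugugaccauag
Among 14 mature arms of 7 such genes read from RefSeq, all 14 seeds differed, so none of the arms compared forms a family by seed. Mir192 (chr19:6264857-6264877) and Mir101b (chr19:29135338-29135356) lie on the plus strand of the same chromosome, Mir30a at chr1:23272274-23272295 and Mir10a at chr11:96317186-96317208 on the plus strand, Mir148a at chr6:51269829-51269850 on the minus strand, and both arms of Mir3073a between 112109252 and 112109311 of chromosome 12, plus strand.

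The Mir122 gene lies at chr18:65248861-65248926 on the plus strand of GRCm38 and is 66 bases long (ENSMUSG00000065402.1, GENCODE M21). It lies inside an exon of the long intergenic non-coding RNA AC157910.3, which runs on the same strand from 65244287 to 65252621 and has no row in the count table. RefSeq also places a gene named Mir122b over 59 bases of the same interval, from 65248863 to 65248921, and this gene has no row either. The strand setting of the counting is not given in the sources used here, so reads of Mir122 and Mir122b cannot be told apart in this row.

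Levels are given as raw CPM, the count of a gene divided by all counts of its library, times 1000000. Library totals ran from 10255 to 34095704 counts, and 8 libraries held fewer than 100000. Liver libraries were among the shallower, at 78905 to 13406435 counts with a median of 990388. Each liver library still held between 1098 and 257117 Mir122 counts, so that counting error on a liver level was small. In Liver 5, the shallowest, the level of 13915 CPM had a 95% exact binomial interval of 13110 to 14757. Such intervals cover counting error only, since reads without molecular identifiers are not independent molecules.

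Mir122 was high in liver in each of the 13 animals with a liver library here. Across the 13 liver libraries it stood at 34845 ± 23537 CPM (SD), with a lowest of 10280 in Liver 6, a median of 26003 and a highest of 75204 in Liver 13. In the 121 libraries of other tissues the median was 1.01 CPM and the highest 74.5 CPM, in Pancreas 1. The lowest liver library was thus 138-fold above the highest library of any other tissue, and the groups did not overlap. Liver gave 856864 of the 860169 Mir122 counts in the table, or 99.6%, while it gave 3.22% of all counts.

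**Figure D1:**
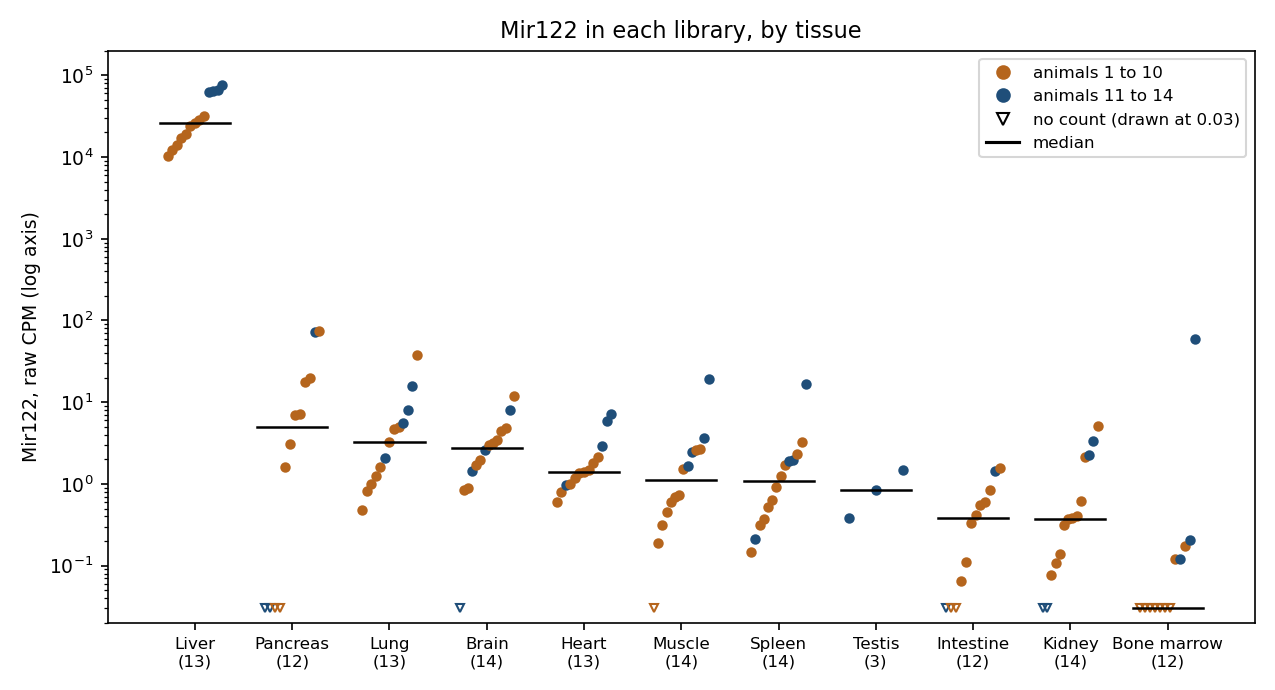
Raw CPM of Mir122 on a log axis for each library (points), by tissue with the number of libraries in parentheses, coloured by animal set; open triangles are libraries with no Mir122 count, drawn at an arbitrary 0.03, and lines are medians. All 13 liver libraries lie at 10280 CPM or more, and no other library exceeds 74.5 CPM.

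Below liver the tissues formed no clear order. Pancreas had a median of 5.01 CPM (0 to 74.5), lung 3.26 CPM (0.481 to 37.8), brain 2.78 CPM (0 to 11.8) and heart 1.38 CPM (0.596 to 7.16). Muscle had a median of 1.13 CPM (0 to 18.98), spleen 1.08 CPM (0.147 to 16.8) and testis 0.847 CPM (0.381 to 1.47). Intestine and kidney followed at 0.379 (0 to 1.55) and 0.377 CPM (0 to 5.15), and bone marrow was last with a median of 0 and a range up to 59.2 CPM. These ranges overlap throughout.

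Each tissue was tested against the next in that order on log2(raw CPM + 0.5), by 2-sided permutation tests adjusted with the Benjamini-Hochberg method over the 10 neighbour pairs. Liver exceeded pancreas by 12.64 on this log2 scale, with an adjusted permutation p of 2e-04, which rests on the smallest p that 100000 resamples can give. The other 9 pairs did not pass, with adjusted permutation p-values of 0.725 to 0.887 and differences between -0.37 (intestine minus kidney) and 0.60 (testis minus intestine). Within animals that gave both tissues, liver was above pancreas in 11 of 11 (12.27 on the log2 scale, adjusted p = 0.00977, exact sign-flip test). Another run left out 5 high libraries, chosen after the values were seen: Bone marrow 14, Lung 4, Muscle 11, Spleen 13 and Pancreas 1. Pancreas 1, at 74.5 CPM, did not stand apart from all of its tissue, as Pancreas 13 was at 72.5 CPM. Kidney then also exceeded bone marrow, by 1.03 (adjusted permutation p = 0.0058), against 0.47 with all libraries. This p is no fair test of the pair: Bone marrow 14 was left out for its own value, and Kidney 10, the highest of kidney, was kept.

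Of the 121 libraries outside liver, 103 held at least 1 Mir122 count and 18 held none. In those 18, the limit that a count of 0 allows (3 counts of the total) ran from 0.201 to 292.5 CPM, the latter in the library labelled Pancreas 11, which held 10255 counts in all. That limit is above the highest level seen in any other library outside liver, so the depth of Pancreas 11 cannot place it. Its index, the tag that marks a library in its pool, is out of series with the other pancreas libraries of that pool. It lies near the indexes of intestine, so the tissue label of this library is uncertain. Among all 121, 60 lay under 1 CPM and 10 lay over 10 CPM.

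The counts were then fitted for all genes together with edgeR's quasi-likelihood test, with tissue and library pool in the model and TMM scaling, which adjusts each library total for a few very abundant RNAs. Mir122 was higher in liver than the mean of the other 10 tissues by 13.31 ± 0.64 on the log2 scale (SE, n = 13 liver libraries; adjusted p = 6.17e-41). This was the highest of the differences of all 1268 genes tested, of which 11.2% were called higher in liver and 21% lower (adjusted p under 0.05 and at least 1 on the log2 scale). Against single tissues the difference ran from 11.78 ± 1.02 over pancreas to 15.50 ± 2.18 over testis. Liver exceeded its nearest tissue, pancreas, with an adjusted p of 7.51e-20 in that single comparison. For exceeding all 10 tissues, the largest of the 10 1-sided p-values was taken, which gave an adjusted p of 1.98e-08 for Mir122. By that p and a smallest difference of at least 1, 0.946% of genes, 12 in number, were called higher in liver than in each of the other 10 tissues. In raw CPM, 3 genes (0.237%) had every liver library above every other library, and these were Mir122, Mir1948 and Mir101b.

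Within liver, Mir122 was among the most counted RNAs but not the first. By mean raw CPM it was 7th of all rows, and it ranked between 4 and 10 among the miRNA rows of single liver libraries, with a median rank of 6. The rows above it were Mir148a at 153124 ± 126442 CPM (SD, n = 13), a miRNA also abundant in secretory glands, Mir192 at 129035 ± 41650, a miRNA of liver, gut and kidney, Mir30a at 101950 ± 69247, Mir10a at 86255 ± 31351, the small nucleolar RNA Gm26202 at 86218 ± 83663 and Mir21a at 44295 ± 29132. Levels were not divided by length, so the small nucleolar RNA cannot be set beside Mir122. The mature miRNAs are of about the same length, but library preparation captures some RNA ends less well than others. Their order is thus one of counts and need not be that of their amounts. Mir148a, Mir30a, Mir10a and Mir192 were also abundant elsewhere, with next-highest tissue medians of 323346 CPM (pancreas), 94084 CPM (brain), 291659 CPM (kidney) and 81353 CPM (intestine), where Mir122 had 5.01 CPM in its next tissue.

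Library by library, the liver values fell apart by animal set. Animals 11, 12, 13 and 14 had 64940, 65831, 75204 and 63374 CPM. Animals 1, 2, 4, 5 and 6 had 17354, 12375, 19179, 13915 and 10280 CPM, and animals 7, 8, 9 and 10 had 31963, 28364, 26003 and 24207 CPM. Every library of animals 11 to 14 was therefore above every library of animals 1 to 10, by at least 1.98-fold. As a share of miRNA counts Mir122 took 7.62, 7.30, 8.48 and 7.61% in animals 11 to 14. In animals 7 to 10 that share was 3.66, 3.86, 3.84 and 3.69%, and in animals 1, 2, 4, 5 and 6 it was 2.16, 1.79, 2.06, 1.78 and 1.57%. No label used here sets animals 7 to 10 apart from animals 1 to 6, and that gap, seen in the values, was not tested.

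**Figure D2:**
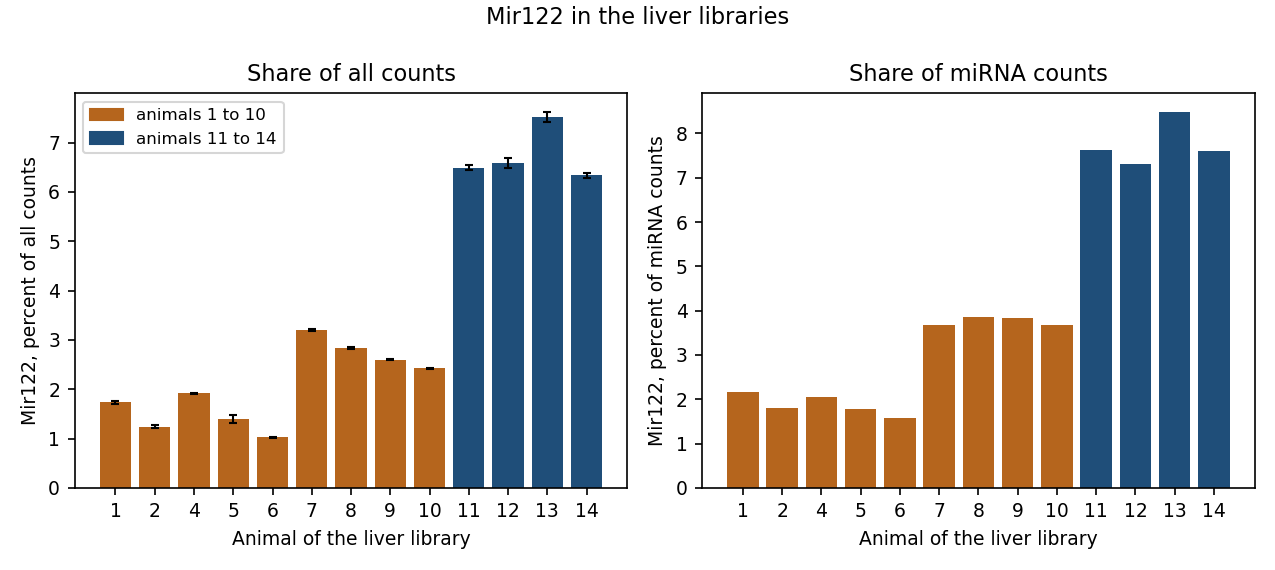
Mir122 in each of the 13 liver libraries as a percent of all counts (left, with 95% exact binomial intervals) and of miRNA counts (right), coloured by animal set. Animals 11 to 14 lie at 6.34 to 7.52% of all counts and animals 1 to 10 at 1.03 to 3.20%.

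Animals 11 to 14 had 67337 ± 5342 CPM (SD, n = 4) and animals 1 to 10 had 20404 ± 7605 (SD, n = 9), a ratio of medians of 3.41. The difference was 1.82 on the log2(raw CPM + 0.5) scale, with an exact 2-sided permutation p of 0.0014, the smallest this design allows, or 0.014 adjusted over the 10 tissues tested in this way. As a share of miRNA counts it was 1.61, with the same exact permutation p of 0.0014. In the edgeR fit of tissue by animal set over all libraries the difference was 1.27 ± 0.76 and did not pass (adjusted p = 0.297), where 2.84% of genes were called higher in animals 11 to 14 and 13.2% lower. In an edgeR fit of the liver libraries alone, added after the data were seen, it was 1.73 ± 0.42 with an adjusted p of 0.00714, and 9.09% of the 462 genes tested there were called higher and 19.7% lower. After TMM scaling the sets still did not overlap, at 65665 to 69054 CPM against 15192 to 60577 CPM, but Liver 4 alone among animals 1 to 10 then exceeded 41454 CPM.

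Of the 1268 genes tested over all tissues, 41, or 3.23%, had every liver library of animals 11 to 14 above every one of animals 1 to 10. These 1268 include genes at 0 in all liver libraries, such as Mir133b and Mir206, which cannot lie so. In the fit of the liver libraries alone 462 genes passed the filter, and the share of non-overlap among genes present in liver was not computed. Within liver, the sex of the animals, the set of animals and the pool in which libraries were sequenced follow 1 split and cannot be told apart. Other measures moved with it. The share of mitochondrial tRNA had a median of 0.624% in animals 11 to 14 and 3.02% in animals 1 to 10, where it reached 11.2%. Library totals had a median of 600152 counts in animals 11 to 14 and 2866681 in animals 1 to 10. The miRNA share of counts was 83.2 to 90.1% against 65.6 to 93.3%, and the snoRNA share was 5.17 to 9.48% against 2.78 to 29.4%. The part of these in the Mir122 difference was not tested.

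The other abundant liver miRNAs did not all move one way between the sets. Mir10a stood at 116299 to 136807 CPM in animals 11 to 14 and at 45422 to 91871 CPM in animals 1 to 10, higher without overlap as for Mir122 but not called (0.25 ± 0.55 on the log2 scale, adjusted p = 0.901 in the edgeR fit over all libraries). Mir148a stood at 30699 to 46921 CPM in animals 11 to 14 and at 81280 to 382447 CPM in animals 1 to 10, without overlap, and was lower in animals 11 to 14 (-2.92 ± 0.61 on the log2 scale, adjusted p = 1.71e-04 in the same fit). Mir192 had medians of 139522 and 126692 CPM (-0.42 ± 0.49, adjusted p = 0.721). Mir30a had 174217 and 46117 CPM, a ratio of 3.78 (0.98 ± 0.52, adjusted p = 0.216), with overlapping ranges, and Mir22 had 24019 and 7091 CPM (1.03 ± 0.42, adjusted p = 0.0774). The rows above Mir122 also differed between the sets. In each of animals 11 to 14 they were Mir30a, Mir192 and Mir10a, whereas in animals 1 to 10 there were 4 to 9 such rows, Mir148a, Mir192 and Mir10a among them in each.

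Across the 9 liver libraries of animals 1 to 10, Mir122 was set against library total, the miRNA, tRNA and snoRNA shares, Mir148a and Mir192. None of these 6 relations passed after adjustment, the lowest adjusted exact permutation p being 0.114, for the snoRNA share. With Mir122 as CPM of miRNA counts, the tRNA share and Mir148a passed by Pearson's r (adjusted exact permutation p = 0.0495 each) and not by Spearman's rho (0.0642 each). Without the 2 libraries farthest from the median of the tRNA share or of Mir148a, neither passed (adjusted exact permutation p = 0.226 and 0.183). On that scale these libraries lie in the separate ranges given above, each of fewer than 6, so no coefficient is given. No coefficient is given across all 13 libraries, since they fall into separate clusters.

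Markers of acinar pancreas, intestinal epithelium, neurons, striated muscle and islets were low in the liver libraries, while those of blood and vessels were higher. Of the acinar pancreas list (Mir216a, Mir216b and Mir217), Mir216b and Mir217 were at 0 in all 13 and the summed level was at most 0.535 CPM, against a median of 9012 CPM in pancreas. Mir215 of intestinal epithelium was at 11.8 to 57.0 CPM against 77021 in intestine. All 6 neuronal markers had a count in some liver library, with a summed level of 0 to 152 CPM, the highest in Liver 5 and the next at 23.4. The neuronal sum was 0 in every library of animals 11 to 14 and 2.09 to 152 CPM in animals 1 to 10, without overlap. At the depth of the libraries of animals 11 to 14, the limit that a count of 0 allows was 3.30 to 11.5 CPM. Of 8 markers of striated muscle, Mir133b, Mir206 and Mir208a were at 0 and the sum was at most 11.1 CPM. Mir375 of islets reached 8.43 CPM. Blood and vessel markers were present: 3 of 3 erythroid miRNAs summed to 5305 to 38903 CPM, 3 of 3 leukocyte miRNAs to 173.7 to 1157 CPM, and Mir126a of endothelium stood at 3678 to 22862 CPM. Mir486 of the erythroid list was highest in muscle in the edgeR fit (liver minus muscle -3.44 on the log2 scale). The erythroid sum is therefore not specific to erythroid cells. Between animals 11 to 14 and 1 to 10, median erythroid sums were 14968 and 19935 CPM and median Mir126a levels 5134 and 7200 CPM, with overlapping ranges. In the edgeR fit over all libraries Mir126a was lower in animals 11 to 14 (-1.78 ± 0.57, adjusted p = 0.0179) and the erythroid Mir144 was higher (1.77 ± 0.51, adjusted p = 0.00743). Mir451a and Mir486 of the erythroid list were not called. The part of these cells in the Mir122 difference was not tested.

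Mir122 was next set among 16 miRNAs known from hepatocytes or liver, a list chosen with earlier results of these data known. All 16 passed the filter on low counts. In the edgeR fit 15, Mir122 among them, were higher in liver than the mean of the other tissues and 1, Mir193b, was lower (-1.68). Over all 1268 genes, 11.2% were called higher and 21% lower. The median of the list was 3.38 against -0.56 over all 1268 genes. After Mir122 came Mir802 at 7.65, a miRNA studied in glucose metabolism, and Mir192 at 7.20, with Mir194-2 at 5.92 and Mir194-1 at 5.33. Mir101b was at 4.50, Mir148a at 3.75, Mir107 at 3.41, Mir193a at 3.35 and Mir455 at 3.04. Mir22, Mir101a, Mir378a, Mir365-1 and Mir365-2 were between 1.18 and 2.07. Mir122 and Mir101b were the 2 members called higher in liver than in each other tissue, as were 0.946% of all genes. The others were not called so: Mir802 had 490 CPM in liver and 1506 in pancreas, Mir192 exceeded its nearest tissue, intestine, by 1.52 (adjusted p = 0.0794), and Mir107 exceeded its nearest tissue, kidney, by 0.97 (adjusted p = 0.0117), under the log2 threshold of 1. Mir194-1 with Mir194-2, Mir365-1 with Mir365-2 and Mir101a with Mir101b are closely related copies, so how reads were divided between them is uncertain.

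Between the animal sets in liver, none of the 16 was called higher in animals 11 to 14, 4 were called lower (Mir148a, Mir193b, Mir101a and Mir101b) and 12 were not called, where over all genes 2.84% were called higher and 13.2% lower. The list's median was -0.46, against -0.65 over all genes. Apart from Mir122, the members whose libraries did not overlap between the sets were Mir194-1 and Mir194-2, higher in animals 11 to 14, and Mir148a, lower. Over all genes, those without liver counts included, 3.23% lay wholly higher and 2.21% wholly lower. Medians of Mir194-1 were 1308 and 495 CPM, and those of Mir194-2 were 2205 and 1054 CPM.

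**Figure D3:**
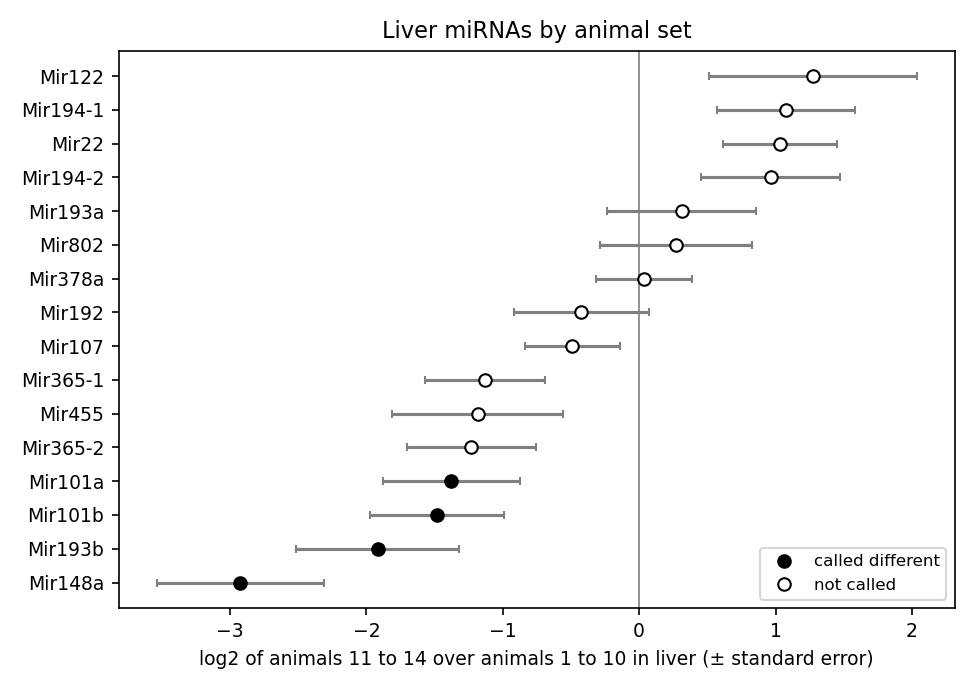
log2 difference of animals 11 to 14 from animals 1 to 10 in liver for the 16 listed miRNAs (edgeR fit over all libraries, bars are standard errors); filled points passed the call and open points did not. Mir122 has the highest difference, 1.27, and is not called, and Mir148a has the lowest, -2.92.

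The genes most like Mir122 in tissue pattern were found by Pearson's r of the 11 tissue means of log2(raw CPM + 1), over the other 1267 genes tested. This r describes 11 tissues that share libraries, rests largely on liver against the rest, and is given without a test. Mir3073a came first (0.98), then Mir1948 (0.94), Mir6972 (0.93), Mir6978 (0.88) and Mir101b (0.79), and 3 genes lay over 0.9. The pattern was alike but the level was not. Mir1948 had a liver median of 61.6 CPM (24.9 to 187.6) and at most 3.23 CPM in any other library, so Mir122 was 422-fold higher by median. Mir3073a had 2.66 CPM from 97 liver counts, Mir6972 1.11 CPM from 55 and Mir6978 1.34 CPM from 35, so these 3 rest on few reads. Mir101b had 8429 CPM in liver but 1477 CPM in brain, its next tissue. None of the 5 was called higher in animals 11 to 14 in liver, where Mir101b was lower (-1.48, adjusted p = 0.0237) and Mir1948 differed by 0.34 (adjusted p = 0.823).

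**Figure D4:**
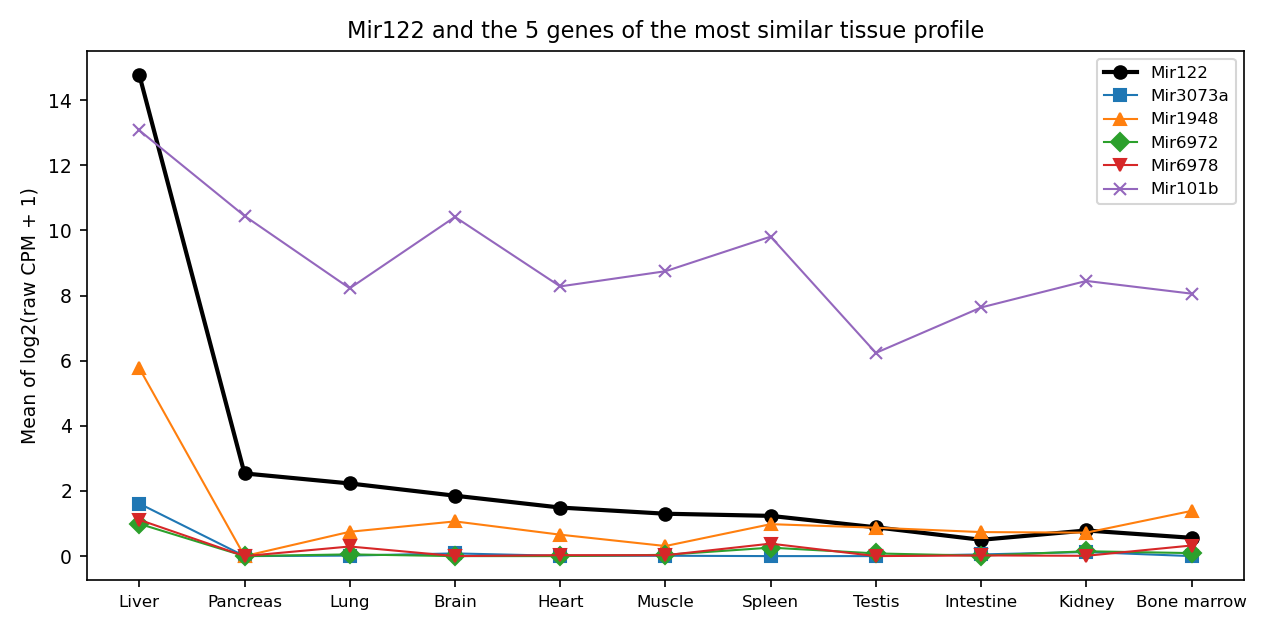
Mean of log2(raw CPM + 1) over the libraries of each tissue for Mir122 (black) and the 5 genes of most similar profile; tissues are in the order of their Mir122 medians. Mir122 and Mir1948 fall steeply from liver to all other tissues, and Mir101b, at 8429 CPM in liver by median, stays well above 0 elsewhere.

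Outside liver, a few libraries stood far above the rest of their tissue in Mir122. Bone marrow 14 held 448 counts, or 59.2 CPM (53.8 to 64.9, 95% exact binomial interval), while the next bone marrow library was at 0.205 CPM. Muscle 11 held 411 counts (18.98 CPM, next library 3.65), Spleen 13 held 98 (16.8 CPM, next 3.27) and Lung 4 held 281 (37.8 CPM, next 15.7). Lung 12, with 426 counts, was at 15.7 CPM. In the first 4 of these, the lower bound of the interval lies above the next library's level. The pancreas values over 10 CPM rest on few reads: 10 counts in Pancreas 1, 17 in Pancreas 5 and 1 count each in Pancreas 4 and Pancreas 13, where the interval runs from 1.84 to 404 CPM.

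Other liver miRNAs were looked at in the same libraries. Relative to the Mir122 level in the same animal's liver, Bone marrow 14 held 0.0934%, Lung 4 held 0.197%, Muscle 11 held 0.0292% and Spleen 13 held 0.0224%. Of the 15 other hepatocyte-list members, 0 were at their tissue's highest in Bone marrow 14 and in Muscle 11, 1 in Lung 4 (Mir192) and 1 in Spleen 13 (Mir22). Of all 1268 genes, 4.50% were at their tissue's highest in Bone marrow 14, 8.20% in Muscle 11, 12.9% in Lung 4 and 3.15% in Spleen 13. The counts of list members are thus near those of genes at large. At shares of this size, liver RNA need not raise a list member to its tissue's highest, so these counts cannot decide the source. In Lung 4, Mir101b was at 994 CPM against a median of 237 in the other lung libraries, and Mir148a at 19211 against 4184. Both lay below the median of the rest of their tissue in Bone marrow 14, Muscle 11 and Spleen 13. The source of the Mir122 counts in these libraries was not tested.

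The difference between animal sets was also compared in the other 9 tissues that hold both sets, on log2(raw CPM + 0.5) with exact permutation tests adjusted over 10 tissues. Besides liver, 3 tissues passed, all higher in animals 11 to 14: bone marrow by 2.49 (adjusted p = 0.0303, exact permutation), muscle by 1.94 (adjusted p = 0.0303, exact permutation) and heart by 1.17 (adjusted p = 0.035, exact permutation). Without the 5 libraries named earlier (Bone marrow 14, Lung 4, Muscle 11, Spleen 13 and Pancreas 1), bone marrow and muscle did not pass (0.32 and 1.26, with adjusted exact permutation p-values of 0.0909 and 0.105). Heart and liver lost no library: liver kept 0.014, and heart kept its difference and its unadjusted exact permutation p of 0.014, but its p adjusted over the tissues was then 0.0699. Lung and spleen differed by 1.12 and 1.05 and did not pass (adjusted exact permutation p = 0.394 and 0.332). Kidney, intestine, brain and pancreas were at 0.24, 0.20, -0.57 and -0.99. As CPM of miRNA counts, with all libraries, bone marrow and muscle passed (adjusted exact permutation p = 0.02 each) and heart did not (0.0594). The tissues that passed differed with the fit. In edgeR bone marrow (9.03 ± 1.09, adjusted p = 1.12e-11; 14.8% of genes higher), muscle (2.77 ± 0.78, adjusted p = 0.00645; 8.75%) and spleen (2.60 ± 0.78, adjusted p = 0.00676; 8.52%) were called and heart was not (1.70 ± 0.82, adjusted p = 0.203; 4.50%). Without the 5 libraries lung alone was called (1.93 ± 0.66, adjusted p = 0.0212; 9.21%). A fit of the set difference by tissue gave an edgeR interaction with an adjusted p of 6.84e-06, as did 38.1% of genes at 0.05, and without those 5 libraries this p was 0.78. As the 5 were left out for their own Mir122 values, results without them show dependence on single libraries and are no independent test.

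Libraries were sequenced in pools, and the level of Mir122 outside liver can be set beside the presence of liver libraries in the pool. In pool N467, with 9 liver libraries, the 38 others had a median of 1.12 CPM, and 36 held a Mir122 count. In pool N469, with no liver library, 48 libraries had a median of 0.709 CPM, and 38 held a count. In pool N541, with 4 liver libraries, 35 others had a median of 1.98 CPM, and 29 held a count. Mir122 made up 0.193% of the counts of pool N467, 9.84e-05% of N469 and 0.0400% of N541. The tissues of the pools differ, so these medians are not comparisons of like with like.

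A comparison within animals used the 8 tissues outside liver, pancreas and testis. In animals 1 to 10, brain, heart, muscle, intestine and bone marrow were sequenced in the pool without liver, and spleen, kidney and lung in a pool with liver, whereas in animals 11 to 14 all were in a pool with liver. The mean log2(raw CPM + 0.5) of the first 5 tissues minus that of the other 3 was 0.07 ± 1.62 in animals 11 to 14 (SD, n = 4) and -0.34 ± 0.56 in animals 1 to 10 (SD, n = 10). The change of 0.41 did not pass (exact permutation p = 0.464). It was -0.15 without animal 12 (exact permutation p = 0.818) and 1.14 without animal 13 (exact permutation p = 0.021), so its sign and its call rest on single animals.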

How the data were processed

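Small RNA libraries were made from RNAlater-preserved tissue with the Illumina TruSeq small RNA kit, size-selected, pooled and read on an Illumina NextSeq instrument, per the labels' protocols. The authors deposited raw counts per small RNA gene, with no normalisation. STAR 2.5.1 and featureCounts, with GRCm38 (mm10), are named in the submitters' processing notes, and their strand and multi-mapping settings are not stated there. The kit's ligation captures some RNA ends less well than others, so a level is relative within its library.

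Of 139 samples listed, 134 had a column used here. Not analysed here were 1 library of liver (animal 3), 1 of pancreas (animal 14) and, for each testis animal, 1 of its 2 libraries. The testis columns were taken to belong to pool N541. The library labelled Pancreas 11, of uncertain tissue by its index, was counted as pancreas, also among the animals paired with liver. Without it, liver exceeded its nearest tissue, pancreas, by 11.72 on the log2 scale in the edgeR fit. Numbers in sample titles name the animals, so same-numbered libraries of different tissues come from the same animal. Libraries of 1 tissue come from different animals, so permutation tests within 1 tissue rest on the spread between animals. The main edgeR fits had no animal term and shared 1 estimate of the spread over all tissues. Their p-values, that of the set difference in liver among them, thus also rest on the spread in other tissues. The neighbour tests did not pair libraries by animal, except for the sign-flip test.

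From the counts, raw CPM was computed, and edgeR 4.0.16 (filterByExpr by tissue, minimum count 10, TMM, Benjamini-Hochberg) was fitted on 1268 genes with R 4.3.3. DESeq2 1.42.0 was an alternative. Exact or 100000-resample permutation tests used log2(raw CPM + 0.5). On simulated data with 200 genes changed 4-fold, the liver fit recovered 90.5%, and the animal-set fit within liver 33.5%, of them (1268 genes each), with 9.05% and 13.0% of calls false. Apart from the change made, each simulated gene had 1 mean for all tissues, with no pool or animal effect. These rates therefore need not hold for the real counts. Genes named are Mir122, the 16 hepatocyte miRNAs, the 5 most alike in tissue pattern, the rows of highest liver mean, genes overlapping Mir122 and the cell type markers; Lung 12 and other single libraries were named after their values were seen. The gene and lists were chosen with earlier results of these data known.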

Additional observations from a re-analysis of the deposited data

Results flagged for a closer look

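Within each tissue and animal set of 4 to 10 libraries, a single library far from the rest was sought by Dixon's ratio. For normally distributed values this flags about 1 group in 20 by chance. Raw CPM is skewed and often rests on few counts, so that rate need not hold here. Of 17 groups, 6 held such a library. Lung 4 stood at 37.8 CPM of Mir122 where the next library of its group had 5.01, Muscle 11 at 18.98 (next 3.65), Spleen 13 at 16.8 (next 1.98), Pancreas 1 at 74.5 (next 20), Brain 10 at 11.8 (next 4.83) and Kidney 10 at 5.15 (next 2.13). Brain 10 rests on 7 counts and Pancreas 1 on 10. Bone marrow 14, at 59.2 CPM, lies in a group of 3 libraries, too few for this test.

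The difference between animals 11 to 14 and animals 1 to 10 in Mir122 varied between the 10 tissues in edgeR's interaction test (adjusted p = 6.84e-06). Without Bone marrow 14, Lung 4, Muscle 11, Spleen 13 and Pancreas 1, left out for their own Mir122 values, the adjusted p was 0.78.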

How the results depend on the processing

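The excess of Mir122 in liver over the mean of the other tissues kept its direction and call under all 27 alternatives (12.77 to 14.64 on the log2 scale; 13.08 to 13.33 leaving out 1 liver or testis library), as did that over the nearest tissue (10.63 to 12.32; 11.71 to 11.85). With the animal as a replicate block they were 13.61 and 11.82, and the block changed no call. The count of listed miRNAs higher in liver was 11 to 15 (15 leaving out 1 liver or testis library). The set difference within liver kept its direction (1.09 to 1.82; 1.26 to 1.48 leaving out 1 liver library of animals 11 to 14) and passed only in tests on liver libraries alone: 1.73 in edgeR, 1.82 by exact permutation and 1.61 of miRNA counts; the SE was 0.42 in the first, against 0.76 in the fit over all tissues. The pool comparison was -0.15 to 1.14 leaving out 1 animal and -0.16 without Bone marrow 14, Lung 4, Muscle 11 and Spleen 13 (exact permutation p = 0.766). Neighbour pairs passing were 1, or 2 without those libraries and Pancreas 1, which were left out for their own Mir122 values. Of 6 relations over the 13 liver libraries 2 passed, 0 in animals 1 to 10, 1 without the 2 farthest libraries and 1 in CPM of miRNA counts; the cause was not tested. Depth limits pancreas most.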
